A study of Rattus norvegicus with 10 samples.

Results

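The P2X and P2Y receptors for extracellular nucleotides were examined in the trigeminal ganglion (TG) of rats with oral ulcerative mucositis (OUM). The set comprised 10 genes, *P2rx2*, *P2rx3*, *P2rx4*, *P2rx5*, *P2rx6*, *P2rx7*, *P2ry1*, *P2ry2*, *P2ry12* and *P2ry14*, out of 15501 gene symbols on the array. They are a named set and not every P2 receptor gene on the array. Probes were assigned to them by RefSeq accession and every such probe was kept, which gave 11 probes of 30367. *P2rx2* had 2 probes and each of the other genes had 1. All animals were male Wistar rats aged 8 weeks, and RNA was collected on day 2. In the OUM model, filter paper soaked in 50% acetic acid was held for 30 s against the mucosa at the base of the lower incisors under anaesthesia, and the naive rats were anaesthetised and otherwise untreated, although their sample labels call them control-treated. Each group held 5 rats, and each rat was measured on 1 one-colour Agilent array. The whole ganglion of both sides was taken, so neurons that innervate the ulcerated area were mixed with those of the rest of the face, with satellite glia, Schwann cells, vessels and connective tissue. In such samples, fewer cells of a type and less RNA per cell cannot be told apart.

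P2X receptors are cation channels that open when ATP binds, and P2Y receptors are G protein-coupled receptors. Damaged or stretched cells release ATP, and sensory neurons respond to it within a very short time through P2X channels. P2X3, alone or assembled with P2X2, is the best known ATP sensor of small nociceptive neurons of the trigeminal and dorsal root ganglia. P2X4 and P2X7 are known mainly from macrophages, microglia and satellite glia. Among the P2Y receptors, P2Y2 is activated by ATP and UTP, P2Y1 and P2Y12 by ADP, and P2Y14 by UDP-sugars, so the set includes receptors of other nucleotides than ATP.

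Values are given as log2 signal relative to the 75th percentile of the same array, so that 0 is the 75th percentile and a step of 1 is a doubling. Levels of different probes are not compared, because each probe has its own brightness. Of the 2 slides used, the first carried naive rats 1, 2, 3 and 5 with OUM rats 1, 2 and 3, and the second carried naive rat 4 with OUM rats 4 and 5. The 75th percentile of an array was 2617.4 to 2939.4 signal units, and 69.1% to 75.7% of the probes were well above background. Probes entered the limma test where naive or OUM arrays, 5 of 5, were all well above background, and 21545 did. The samples were described with marker genes of cell types, which did not test TG identity. All 5 neuronal markers on the array were detected on all 10 arrays. Their summed signal (in multiples of the 75th percentile) was 271.0 to 310.0 in naive rats and 248.0 to 322.0 in the OUM model. Macrophage markers were detected for 8 of 8 genes, with sums of 3.37 to 4.16 and 3.45 to 4.19. Satellite glial markers were detected on all arrays for 4 of 5 genes (136.0 to 151.0 in both groups). Of the 4 tested, 0 were higher and 1 was lower at an unadjusted p under 0.05 (limma). Over all tested probes, 3.76% were higher and 5.18% lower. The pituitary markers ranged from 0.337 to 21.5 in naive and from 1.07 to 26.2 in OUM rats, and 4 of 7 were detected on all arrays; their part in the results was not tested.

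All 10 receptor genes were expressed at a detectable level in the TG, with each of the 11 probes well above background on 10 of 10 arrays. Of all probes, 69.1% to 75.7% were well above background on a single array. The set was chosen with earlier results known, and P2 receptor genes outside it were mostly not detected. Its full detection is therefore not a finding about P2 receptors in general. For none of the 11 probes did the difference between OUM and naive rats pass the test. No receptor probe passed an adjusted p of 0.05 (limma, two-sided, Benjamini-Hochberg adjustment over all tested probes), where 2 of 21545 probes, or 0.00928%, did. At an unadjusted p under 0.05, 0 of 11 receptor probes passed, against 1925 of all tested probes (8.93%). The naive and OUM arrays overlapped for each of the 11 probes, whereas they did not overlap for 387 of all tested probes (1.8%). The OUM mean was above the naive mean for 5 receptor probes and below it for 6. Their median difference was -0.0075 on the log2 scale, beside -0.014 over all tested probes, and the median absolute difference was 0.064, beside 0.068.

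**Figure D1:**
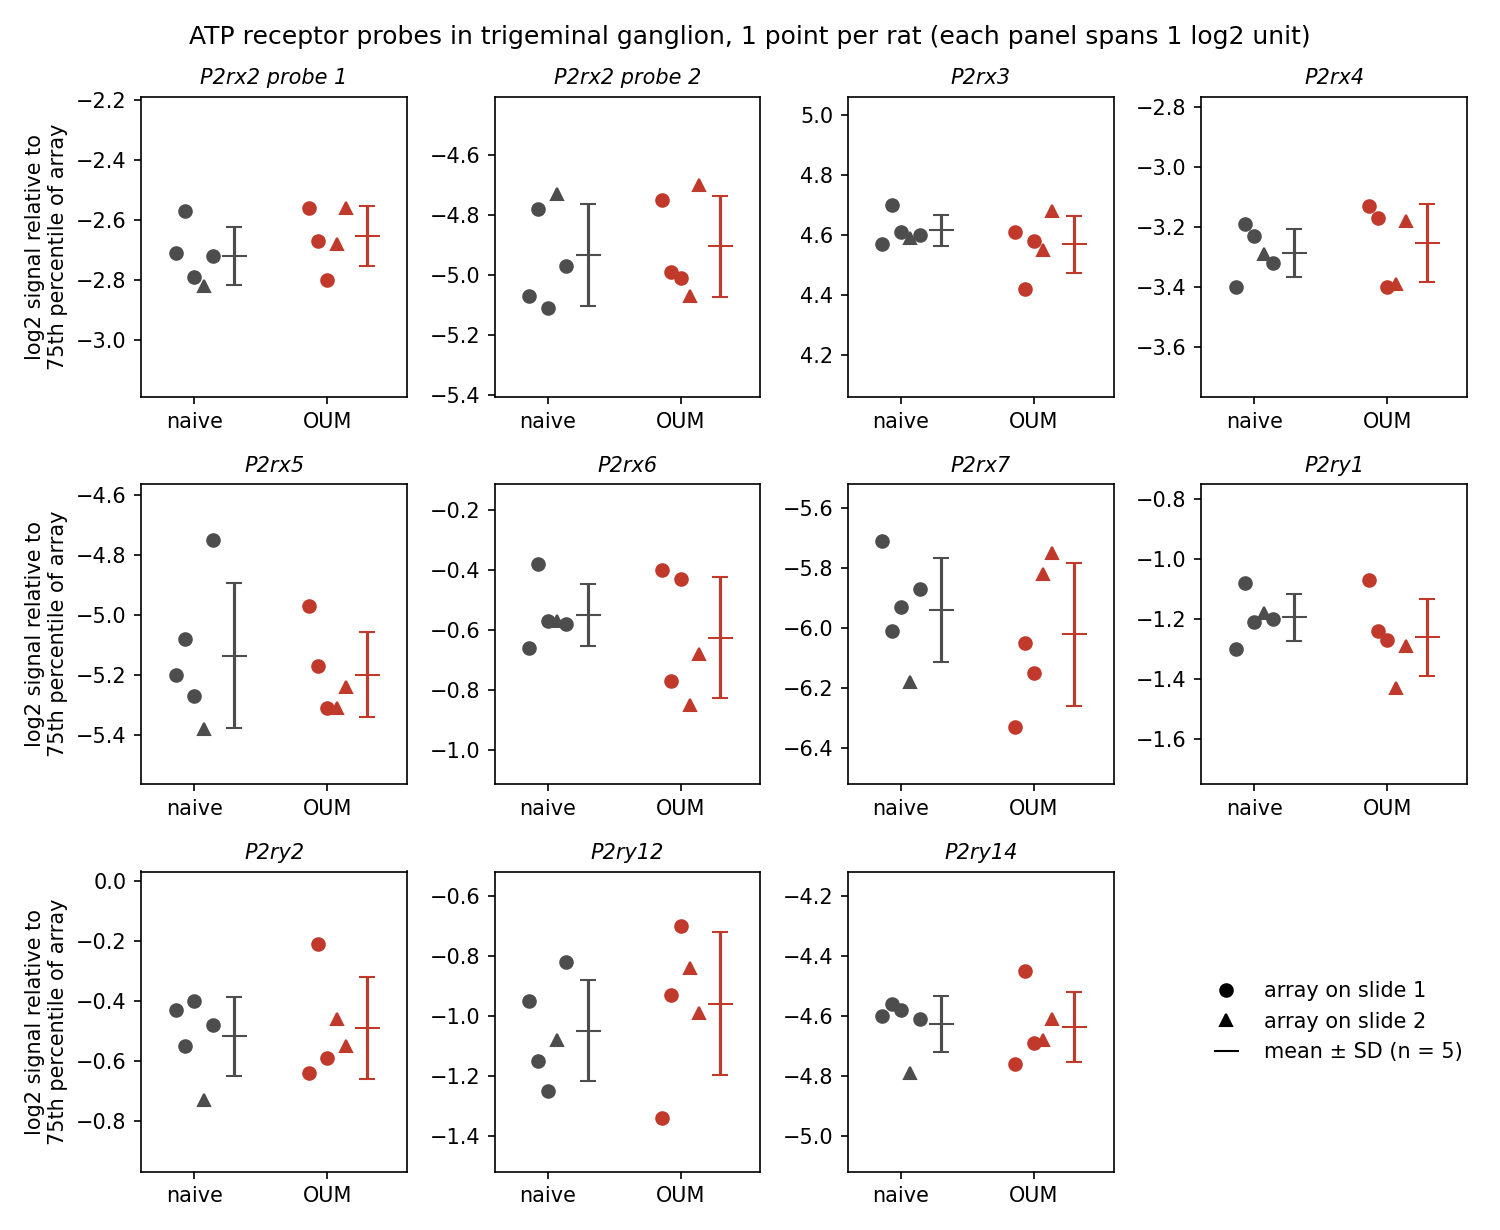
Log2 signal of the 11 receptor probes relative to the 75th percentile of the array (vertical axis, each panel spanning 1 log2 unit) in naive and OUM rats. Each point is 1 rat, its shape shows the slide, and the bars give the mean ± SD of 5 rats. The groups overlap in every panel.

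The sensory neuron channel gene *P2rx3* had processed signals of 61200 to 73800 units on the 10 arrays and no saturated spot. Its log2 signal was 4.57, 4.70, 4.61, 4.59 and 4.60 in naive rats 1 to 5 and 4.61, 4.42, 4.58, 4.55 and 4.68 in OUM rats 1 to 5. OUM rat 2 had the lowest value and naive rat 2 the highest. The means were 4.62 ± 0.051 (SD, n = 5) and 4.57 ± 0.098 (SD, n = 5), a difference of -0.049 (SE 0.054, 95% interval -0.17 to 0.071). This did not pass the test (limma adjusted p = 0.812, exact permutation test p = 0.341). As a fold change, the interval reached from 0.889 to 1.05.

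*P2rx2* encodes the subunit that assembles with P2X3. Its first probe, printed in 10 spots per array, gave -2.71, -2.57, -2.79, -2.82 and -2.72 in naive rats and -2.56, -2.67, -2.80, -2.68 and -2.56 in OUM rats. Of the OUM rats, 4 of 5 were above the naive median, and the difference was 0.066 (SE 0.063, 95% interval -0.075 to 0.21, limma adjusted p = 0.778, exact permutation test p = 0.27). The second probe, with 1 spot per array, gave -5.07, -4.78, -5.11, -4.73 and -4.97 in naive rats and -4.75, -4.99, -5.01, -5.07 and -4.70 in OUM rats. Both groups spanned almost the same range, and the difference was 0.029 (SE 0.10, 95% interval -0.19 to 0.25, limma adjusted p = 0.95). Both probes gave small positive estimates, and that of the second probe turned negative within slide 2 (-0.15).

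*P2rx5* and *P2rx6* encode the remaining P2X subunits of the set; P2X6 forms functional channels poorly on its own and is known from assemblies with other subunits. *P2rx6* was at -0.66, -0.38, -0.57, -0.57 and -0.58 in naive rats and at -0.40, -0.77, -0.43, -0.85 and -0.68 in OUM rats. The OUM rats were more spread (SD 0.20 against 0.10), with 2 of them near the highest naive value and 3 below the lowest. The difference was -0.072 (SE 0.095, 95% interval -0.28 to 0.14, limma adjusted p = 0.851). *P2rx5* ranged from -5.38 to -4.75 in naive rats and from -5.31 to -4.97 in OUM rats, with naive rat 5 the highest of all 10. Its difference was -0.064 (SE 0.12, 95% interval -0.32 to 0.19, limma adjusted p = 0.898). Without naive rat 5 it was 0.033, so its sign rests on that animal.

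The immune and glial channel gene *P2rx4* gave -3.40, -3.19, -3.23, -3.29 and -3.32 in naive rats and -3.13, -3.17, -3.40, -3.39 and -3.18 in OUM rats. Among the OUM rats, 3 were just above the highest naive value and 2 were near the lowest, and the difference was 0.032 (SE 0.068, 95% interval -0.12 to 0.18, limma adjusted p = 0.913). *P2rx7*, the gene next to it in the RefSeq gene order of the GRCr8 assembly with no protein-coding gene between them, encodes the channel that needs high ATP and can trigger interleukin release from macrophages. Its probe lay not far above background, at 33.8 to 53.4 signal units, and had 10 spots per array.

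The direction of the *P2rx7* difference was not the same on both slides. Its log2 signal was -5.71, -6.01, -5.93, -6.18 and -5.87 in naive rats and -6.33, -6.05, -6.15, -5.82 and -5.75 in OUM rats, a difference of -0.083 over all arrays (SE 0.12, 95% interval -0.35 to 0.19, limma adjusted p = 0.869, exact permutation test p = 0.548). On slide 1, all 3 OUM arrays lay below all 4 naive arrays, and the difference was -0.30 (limma unadjusted p = 0.0136, adjusted p = 0.278). The exact permutation test over the 35 assignments of those arrays gave p = 0.0571, where the smallest possible p is 0.0286. On slide 2, both OUM arrays lay above the naive array, by 0.40, and since 1 naive array gives no spread for its group, this is reported as a value with no test. With slide as a block, the difference was -0.11, and with each array left out in turn it ranged from -0.15 (without OUM rat 5) to -0.005 (without OUM rat 1). Without naive 1, OUM 1 and OUM 2, all on slide 1, it was 0.089 (limma unadjusted p = 0.475). Of the 11 receptor probes, *P2rx7* was the only one with an unadjusted p under 0.05 on slide 1. There, 13.9% of all tested probes passed and 14.9% had groups without overlap. The difference between the slides was not tested.

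**Figure D2:**
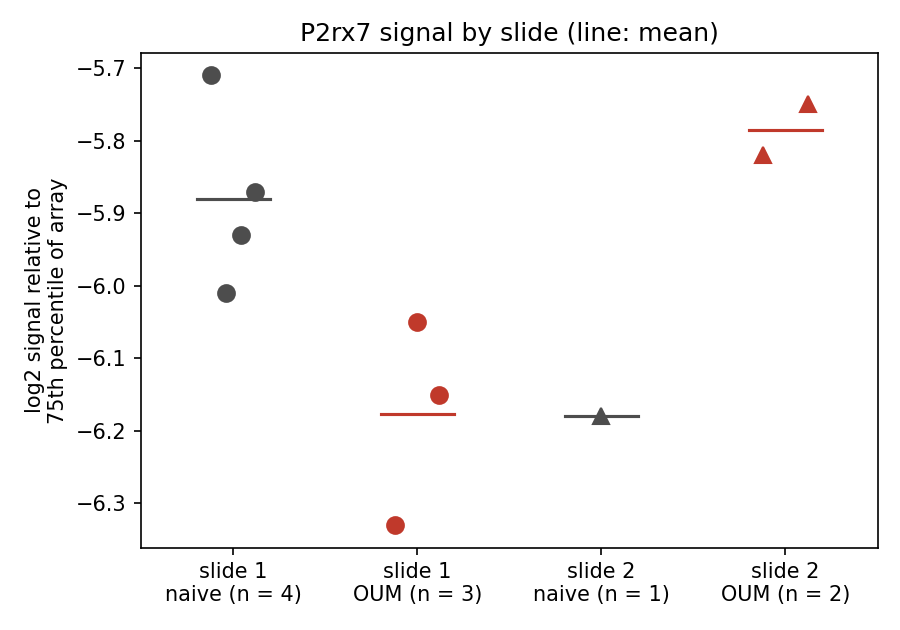
Log2 signal of *P2rx7* relative to the 75th percentile of the array (vertical axis) by slide and group; points are rats and lines are means. On slide 1 the 3 OUM rats are below the 4 naive rats, and on slide 2 the 2 OUM rats are above the 1 naive rat.

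*P2ry1* and *P2ry2* encode receptors that couple to Gq proteins and phospholipase C. *P2ry1* gave -1.30, -1.08, -1.21, -1.18 and -1.20 in naive rats and -1.07, -1.24, -1.27, -1.43 and -1.29 in OUM rats. All OUM rats but number 1 were below the naive median, and the difference was -0.068 (SE 0.067, 95% interval -0.22 to 0.082, limma adjusted p = 0.789, exact permutation test p = 0.333). Without naive 1, OUM 1 and OUM 2, whose summed pituitary markers were 19.5 to 26.2 against 0.337 to 5.33 on the other arrays, it was -0.16 (limma unadjusted p = 0.038, adjusted p = 0.549), where 8.64% of all tested probes passed an unadjusted p of 0.05. *P2ry2* gave -0.43, -0.55, -0.40, -0.73 and -0.48 in naive rats and -0.64, -0.21, -0.59, -0.46 and -0.55 in OUM rats. OUM rat 2 was highest and naive rat 4 lowest, and the difference of 0.029 (SE 0.091, 95% interval -0.17 to 0.23, limma adjusted p = 0.944) became -0.041 without OUM rat 2 and -0.025 without naive rat 4.

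*P2ry12* and *P2ry14* encode receptors that couple to Gi proteins. P2Y12 is known as a receptor of platelets and resident microglia. *P2ry12* gave -0.95, -1.15, -1.25, -1.08 and -0.82 in naive rats and -1.34, -0.93, -0.70, -0.84 and -0.99 in OUM rats. It had the largest estimate of the 11 probes, 0.09 (SE 0.12, 95% interval -0.18 to 0.36, limma adjusted p = 0.851, exact permutation test p = 0.516), with 4 of 5 OUM rats above the naive median and OUM rat 1 below all others. It was 0.19 without OUM rat 1 (limma unadjusted p = 0.0844) and 0.025 without OUM rat 3. *P2ry14* was at -4.60, -4.56, -4.58, -4.79 and -4.61 in naive rats and at -4.76, -4.45, -4.69, -4.68 and -4.61 in OUM rats. Its difference was -0.0075 (SE 0.068, 95% interval -0.16 to 0.14, limma adjusted p = 0.984), the smallest of the set, and it was 0.0055 when arrays were scaled to their median.

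How large a change of the whole-ganglion signal could have escaped was read from the 95% intervals. The paper assumed that regulation would be confined to the mandibular region of the TG. By qPCR, it found *Hamp*, *Reg3b* and *Serpina3n* raised in the third branch of the TG but not in the other branches. It reported no such measurement for the receptor genes. A change confined to the mandibular region would appear smaller in these whole-ganglion samples. How large such a regional change could have been was not tested. For all 11 receptor probes, the interval lay inside a fold of 0.67 to 1.5, as it did for 90.7% of all tested probes. Inside the narrower limits of 0.83 to 1.2 lay the intervals of 7 receptor probes (63.6%), beside 54.4% of all tested probes. These were both *P2rx2* probes, *P2rx3*, *P2rx4*, *P2ry1*, *P2ry2* and *P2ry14*. The widest intervals belonged to *P2rx7*, *P2ry12* and *P2rx5*, and these and the interval of *P2rx6* reached past the narrower limits on at least 1 side. The count depended on the limit: inside 0.89 to 1.12 lay the interval of *P2ry14* alone (9.09%, beside 21.0% of all tested probes). The limits other than 0.67 to 1.5 were set after the intervals had been seen.

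**Figure D3:**
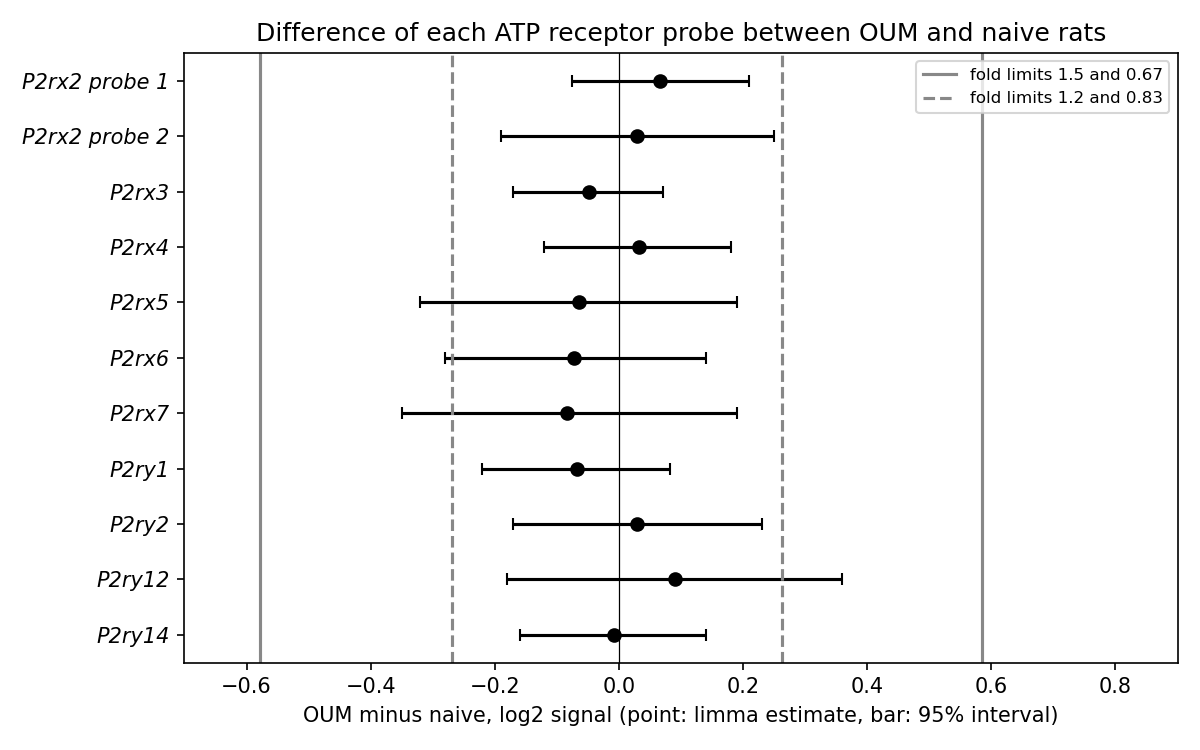
Difference between OUM and naive rats (horizontal axis, log2 signal) for each receptor probe, with points for the limma estimate and bars for the 95% interval (5 rats per group). All bars cross 0 and lie between the solid lines at a fold of 0.67 and 1.5; 7 of 11 lie between the dashed lines at 0.83 and 1.2.

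The spread between spots of 1 array was set against the spread between rats. For *P2rx3* the SD of spots within an array was 0.048 and the SD between rats of a group 0.078. The spot SD was also below the SD between rats for *P2rx6* (0.043 and 0.16), *P2ry2* (0.045 and 0.15) and *P2ry12* (0.055 and 0.21). For 3 probes it was not: *P2rx5* had a spot SD of 0.33 beside 0.20 between rats, *P2rx7* 0.22 beside 0.21, and *P2ry14* 0.18 beside 0.11. Spots of an array were averaged, so the precision of an array value also depends on their number.

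Whether the receptors varied together between rats was also examined. Over the 10 arrays, 55 pairs of receptor probes were compared, and 0 passed an adjusted p of 0.05 (permutation test of Pearson's r), while 7 passed unadjusted. The highest was between *P2ry2* and *P2ry14*, with r = 0.88 (permutation p = 0.00145, adjusted p = 0.0797) and rho = 0.77 (permutation p = 0.0127, adjusted p = 0.375). It was 0.61 without the 2 arrays farthest from the median of *P2ry2* and 0.88 over the 7 arrays of slide 1. *P2rx4* and *P2ry12* had the lowest, r = -0.73 (permutation p = 0.0195, adjusted p = 0.336) and rho = -0.66 (permutation p = 0.0432, adjusted p = 0.375), or -0.50 without the 2 arrays farthest from the median and -0.76 on slide 1. All values share the scaling of their array. Of 11724 other genes, those that followed *P2rx3* most closely over the 10 arrays were *Tmem60*, *Bin3* and *Chit1*, each with r = 0.96, and with rho of 0.81, 0.90 and 0.89. Without the 2 arrays farthest from the median, r was 0.79, 0.85 and 0.82. These are descriptions of the highest values among many genes.

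Other P2 receptor genes were mostly not detected. Of 6 on the array, *P2ry6*, a UDP receptor, and *Gpr17* were tested, and *P2rx1*, *P2ry4*, *P2ry10* and *P2ry13* were well above background on 0, 2, 0 and 4 of 10 arrays. *P2ry6* gave -2.43 ± 0.18 (SD, n = 5) in naive and -2.25 ± 0.29 (SD, n = 5) in OUM rats, a difference of 0.18 (limma adjusted p = 0.727). With each array left out in turn, the difference ranged from 0.12 to 0.30. It was lowest without OUM rat 4 (limma unadjusted p = 0.441) and highest without OUM rat 1 (limma unadjusted p = 0.0148, adjusted p = 0.308). *Gpr17* differed by 0.0045. In the list of 9 genes for ATP release, 6 were tested, and 1 was higher at an unadjusted p under 0.05, where 3.76% of all tested probes were higher and 5.18% lower. This was *Gja1*, which encodes the gap junction protein connexin 43 of satellite glia: -0.73 ± 0.19 (SD, n = 5) in naive and -0.40 ± 0.27 (SD, n = 5) in OUM rats, a difference of 0.34 (SE 0.13, limma unadjusted p = 0.0309, adjusted p = 0.518). For *Gja1*, 4 of 5 OUM rats were above all naive rats (exact permutation test p = 0.0635), and the difference ranged from 0.26 to 0.44 with each array left out in turn, with unadjusted p up to 0.076. *Panx1*, the pannexin channel gene, differed by 0.098 (limma adjusted p = 0.764).

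Of the 9 ectonucleotidase genes, which encode enzymes that degrade extracellular ATP, 8 were tested and none passed an unadjusted p of 0.05, with a median difference of -0.037. The lowest p belonged to *Nt5e*, which converts AMP to adenosine (-0.15, SE 0.082, limma adjusted p = 0.634), and *Entpd3*, an ATP-degrading enzyme of sensory neurons (-0.16, SE 0.096, limma adjusted p = 0.664). With each array left out in turn, limma unadjusted p was 0.0266 (without naive rat 1, adjusted p = 0.643) to 0.219 for *Nt5e*. For *Entpd3* it was 0.00799 (without OUM rat 1, adjusted p = 0.279) to 0.301. Among 10 tested genes for adenosine receptors and handling, 1 was higher at an unadjusted p under 0.05, beside 3.76% of all tested probes. *Slc29a4*, a membrane transporter gene, had a difference of 0.30 (SE 0.13, limma unadjusted p = 0.0443, adjusted p = 0.546), whereas its second probe gave -0.058. The first probe's difference was 0.46 on slide 1 (limma unadjusted p = 0.000681, adjusted p = 0.237). With slide as a block it was 0.38 (limma unadjusted p = 0.000871, adjusted p = 0.254). It was 0.22 without OUM rat 1 (limma unadjusted p = 0.106). Without naive 1, OUM 1 and OUM 2, the arrays with the highest summed pituitary markers, it was 0.12 (limma unadjusted p = 0.402). The adenosine receptor gene *Adora2b* differed by 0.25 (SE 0.12, limma adjusted p = 0.588).

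In the path downstream of the P2Y receptors, 15 genes for G proteins, phospholipase C, inositol trisphosphate receptors and protein kinase C were tested. At an unadjusted p under 0.05, 3 were higher and 1 was lower, beside 3.76% and 5.18% of all tested probes, and 0 passed the adjustment. The 3 higher ones were the inositol trisphosphate receptor genes, which encode calcium channels of the endoplasmic reticulum. *Itpr2* was at -4.25 ± 0.079 (SD, n = 5) in naive and at -4.01 ± 0.10 (SD, n = 5) in OUM rats, a difference of 0.24 (SE 0.061, limma unadjusted p = 0.00271, adjusted p = 0.389), and 4 of 5 OUM rats were above all naive rats (exact permutation test p = 0.0238). *Itpr1* differed by 0.22 (SE 0.082, limma adjusted p = 0.498) and by 0.17 with its second probe (limma adjusted p = 0.603). *Itpr3* differed by 0.16 (SE 0.068, limma adjusted p = 0.546), and the phospholipase gene *Plcb4* by -0.18 (SE 0.076, limma adjusted p = 0.538); both were named after their values were seen.

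Of the effectors of P2X4 and P2X7, 7 of 9 genes on the array were tested and 1 was higher at an unadjusted p under 0.05, beside 3.76% of all tested probes. The growth factor gene *Bdnf* was at -3.70 ± 0.13 (SD, n = 5) in naive and at -3.54 ± 0.076 (SD, n = 5) in OUM rats, a difference of 0.16 (SE 0.067, limma unadjusted p = 0.0325, adjusted p = 0.525); with each array left out in turn it was 0.13 to 0.20, with unadjusted p up to 0.0802. *Il18*, a cytokine gene, differed by 0.20 (limma adjusted p = 0.650), and the inflammasome sensor gene *Nlrp3* was well above background on 0 of 10 arrays. *Il1b*, the interleukin gene with the largest absolute estimate of these lists (picked out on sight of its values), differed by -0.40 (SE 0.25, limma adjusted p = 0.671), with -0.71 on slide 1 and 0.47 on slide 2. The non-peptidergic nociceptors, the neurons in which P2X3 is most abundant, were described by 7 genes on the array, all tested. None of them passed an unadjusted p of 0.05, and their median difference was 0.014. The sodium channel gene *Scn11a* differed by -0.12 (SE 0.074, limma adjusted p = 0.666) and the growth factor receptor gene *Ret* by 0.15 (SE 0.14, limma adjusted p = 0.783). The *Ret* difference was 0.052 without OUM rat 1 and 0.22 with slide as a block (limma unadjusted p = 0.0474, adjusted p = 0.421). The other *Ret* probes differed by 0.069 (limma adjusted p = 0.808) and 0.046 (limma adjusted p = 0.895) over all arrays.

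**Figure D4:**
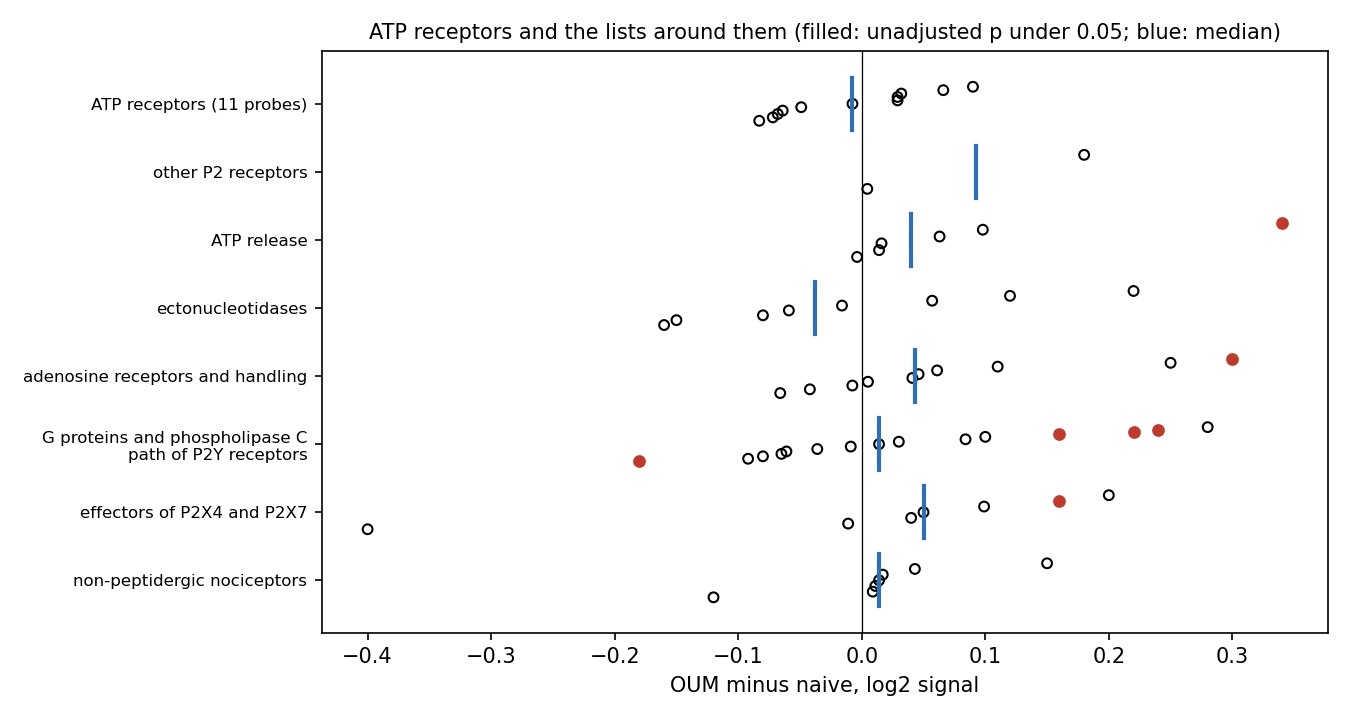
Difference between OUM and naive rats (horizontal axis, log2 signal) for the receptor probes and for the tested genes of 7 lists around them, 1 point per probe in the top row and per gene in the others; filled points have a limma unadjusted p under 0.05 and blue lines are medians. All 11 receptor probes lie between -0.083 and 0.09, and no point passed an adjusted p of 0.05.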

How the data were processed

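Each of 10 rats, 5 per group, gave TG RNA for 1 one-colour Agilent array. The authors scanned the arrays and quantified spots with Agilent Feature Extraction 10.7.1.1; the deposited files hold the background-subtracted processed intensity and marks for outliers, saturation and spots well above background, and the authors' value table, used as an alternative, holds that intensity divided by a constant per array (100.0% of probes within 0.05 log2; column medians 0.115 to 0.123). Control and outlier spots were left out, log2 values were scaled to the array's 75th percentile and spots of a probe were averaged. Probes were named by accession from a RefSeq GRCr8 table (18430 with 1 symbol, 11937 without); the array annotation has another build, so no coordinates are given. Groups were compared with limma 3.58.1 in R 4.3.3, and single probes by exact permutation over 252 assignments, whose smallest p is 0.00794. Labels do not give litters. In simulated data with 21545 probes, limma recovered 76.1% of 67 probes changed 1.5-fold and 91% of 67 changed 2-fold, and called 12 of 21345 unchanged ones.

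The receptors, lists, tests and alternatives were chosen with earlier results of these data known. Named genes are all receptors, list members past an adjusted p of 0.05, the 2 genes with the lowest p per list, represented by the brightest tested probe, and the 3 genes most correlated with *P2rx3*; exceptions are stated. One item is not reported here. Alternatives were other background corrections, scalings and filters, 1 probe per gene, outlier spots kept, slide and replicate blocks, each slide alone, the methods' t-test, the authors' table, and arrays left out. The normexp correction (offset 50) used the median spot signal, as no mean signal column was found. The number of arrays limits the precision.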

Additional observations from a re-analysis of the deposited data

Results flagged for a closer look

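Gaps within a group of 5 rats were examined by Dixon's test in 50 groups (receptor probes and the named list genes, each in naive and OUM rats). In 2 of them 1 rat stood apart at the 95% level, where 2.5 are expected by chance (1 in 20). For *P2ry14*, naive rat 4 was at -4.79 and the other naive rats at -4.61 to -4.56. For *Itpr2*, OUM rat 1 was at -4.19 and the other OUM rats at -4.00 to -3.92.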

How the results depend on the processing

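No receptor probe passed an adjusted p of 0.05 under any alternative run. At an unadjusted p under 0.05, with slide 2 alone left aside, the count of receptor probes was 0 except in 2 settings. It was 1 on slide 1 alone (*P2rx7*) and 1 without naive 1, OUM 1 and OUM 2 (*P2ry1*). With 1 array left out at a time it ranged from 0 to 0. For slide 2 alone only differences are given, because 1 naive array gives no spread for its group. The methods' t-test gave 0 receptor probes and 1779 of all probes at an unadjusted p under 0.05, and 0 after Benjamini-Hochberg adjustment. The count of all probes past an adjusted p of 0.05 was 2; it was 1 with normexp, 0 with quantile normalization, 4 with the array median, 0 without the filter, 6 with slide as a block, 6 on slide 1, 160 on slide 2, 0 with the authors' table, and 0 without naive 1, OUM 1 and OUM 2. Leaving out 1 array gave 0 to 1: 1 without naive 1, naive 5, OUM 4 or OUM 5 and 0 without any of the others. With the replicate number as a block it was 0 as well; same-numbered rats did not deviate together (correlations -0.03, -0.06, 0.12, 0.33 and -0.09), so the numbers were not taken as pairs, and no receptor call changed.

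Several estimates near 0 turned sign; the cause was not tested. On slide 1 alone these were *P2rx6* (0.017), *P2ry1* (0.0014) and *P2ry2* (-0.015). On slide 2 alone they were *P2rx2* probe 2 (-0.15), *P2rx3* (0.025), *P2rx5* (0.11), *P2rx7* (0.40), *P2ry14* (0.15), *Gpr17* (-0.14), *Panx1* (-0.14) and *Ret* (-0.05). With slide as a block, *P2ry14* was 0.01 and *Gpr17* -0.033. Without naive 1, OUM 1 and OUM 2, *P2rx2* probe 2 was -0.029, *P2rx4* -0.065, *P2rx7* 0.089 and *Ret* -0.027. *P2ry14* was 0.0055 with the array median and 0.0077 with the authors' table. With each array left out in turn, *P2rx2* probe 2 ranged from -0.022 to 0.078, *P2rx4* from -6.5e-05 to 0.068, *P2rx5* from -0.13 to 0.033, *P2ry2* from -0.041 to 0.067, *P2ry14* from -0.054 to 0.023 and *Gpr17* from -0.055 to 0.059. The first *P2rx2* probe and *P2ry12* kept their sign under every alternative run.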
